A study of Mus musculus with 24 samples.

Results

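Genes of the route by which Ras activates the kinase ERK were described in 24 mouse brain arrays. The genes listed were Rasgrf1, Hras, Braf, Map2k1, Map2k2 and Mapk3, and the measurements taken were all probe sets whose annotation names exactly 1 gene symbol and that symbol is on the list. This gave 15 probe sets of 4 genes, out of 45037 probe sets and 18193 genes: 3 for Rasgrf1, 9 for Braf, 1 for Map2k1 and 2 for Map2k2. Hras and Mapk3 are not analysed here. All 15 probe sets passed the filter on dim signal, which kept 27022.

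The mice descended from C57BL/6J crossed with A/J and were selected on contextual fear conditioning, a test in which a mouse learns to freeze where it was shocked. Total RNA was taken from the amygdala of high freezing and of low freezing animals and from the hippocampus of high freezing and of low freezing animals, with 6 arrays in each of the 4 groups. The labels carry no age, sex or number of animals per array, so a p-value reflects only how far these arrays scatter. Each array is 1 colour and gives linear intensity values as deposited.

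Ras is a small membrane-bound switch that is on when it holds GTP. Exchange factors such as Rasgrf1 load it with GTP, and Rasgrf1 itself responds to calcium and calmodulin and is found mainly in neurons. Active Ras recruits Raf kinases, among them Braf. Raf phosphorylates the kinases MEK1 and MEK2, encoded by Map2k1 and Map2k2, and these phosphorylate ERK. In hippocampus and amygdala this cascade is known for its part in synaptic plasticity and in the storage of fear memory. In mouse brain Rasgrf1 is also known as an imprinted gene that is expressed mainly from the paternal copy.

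The promoters of the 4 measured genes are shown as a description of their sequence. Each sequence runs 5′ to 3′ on the gene's strand, from 250 bases before to 50 after the RefSeq start site in build GRCm38.p6. Capitals mark TGACG or its reverse complement CGTCA, the core of the element bound by CREB, a factor that kinases downstream of ERK are known to phosphorylate.
Rasgrf1 (chr9:89909525-89909824, plus strand): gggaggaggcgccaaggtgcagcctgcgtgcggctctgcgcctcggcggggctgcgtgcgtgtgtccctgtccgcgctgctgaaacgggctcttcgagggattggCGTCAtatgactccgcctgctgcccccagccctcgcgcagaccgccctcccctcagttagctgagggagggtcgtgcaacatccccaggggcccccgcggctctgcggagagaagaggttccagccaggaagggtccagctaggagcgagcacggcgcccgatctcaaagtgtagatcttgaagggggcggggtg
Braf (chr6:39725414-39725713, minus strand): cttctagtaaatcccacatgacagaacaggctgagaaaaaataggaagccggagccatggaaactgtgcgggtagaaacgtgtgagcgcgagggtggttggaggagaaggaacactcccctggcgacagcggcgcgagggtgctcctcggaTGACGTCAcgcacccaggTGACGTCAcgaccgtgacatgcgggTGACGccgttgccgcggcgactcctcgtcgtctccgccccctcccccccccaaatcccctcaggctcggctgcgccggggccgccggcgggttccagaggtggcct
Map2k1 (chr9:64253556-64253855, minus strand): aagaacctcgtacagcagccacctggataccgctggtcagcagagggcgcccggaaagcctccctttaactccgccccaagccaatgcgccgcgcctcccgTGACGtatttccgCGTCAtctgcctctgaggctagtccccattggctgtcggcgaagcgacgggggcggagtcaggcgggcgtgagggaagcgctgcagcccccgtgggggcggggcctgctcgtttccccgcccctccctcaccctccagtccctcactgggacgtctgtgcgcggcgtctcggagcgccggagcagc
Map2k2 (chr10:81105665-81105964, plus strand): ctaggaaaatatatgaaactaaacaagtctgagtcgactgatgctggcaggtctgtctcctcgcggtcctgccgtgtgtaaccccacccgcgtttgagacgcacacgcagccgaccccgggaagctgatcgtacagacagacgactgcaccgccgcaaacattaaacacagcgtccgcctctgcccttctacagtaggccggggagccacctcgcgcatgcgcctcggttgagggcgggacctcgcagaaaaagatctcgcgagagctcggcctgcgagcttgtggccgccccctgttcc
The core occurred 1 time in the Rasgrf1 window, 5 times in that of Braf, 2 times in that of Map2k1 and 0 times in that of Map2k2, counting both strands and overlaps. Of 32851 RefSeq promoter windows of this length, 20.8% held it at least 1 time and 5.01% at least 2 times. The full palindrome TGACGTCA, whose ends overlap the core on both strands, was present 2 times in the Braf window and in 1.79% of all windows; 13 of them (0.0396%) held it at least 2 times. GC content was 68.3% for Rasgrf1, 65.0% for Braf, 69.0% for Map2k1 and 60.7% for Map2k2, against a median of 52.7% over all windows. The core holds a CG pair, and the windows it was compared with were not matched for GC content. These are matches of letters, and no measurement of binding was made. A link between the core and the regional differences of these genes was not tested.

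All 3 probe sets of Rasgrf1 were lower in the amygdala. Probe set 1422600_at read 1648, 2106, 1756, 1789, 1827 and 2018 intensity units in the high freezing amygdala and 1577, 1615, 1588, 1546, 1635 and 1771 in the low freezing amygdala. It read 3102, 3097, 3058, 2916, 2953 and 3046 units in the high freezing hippocampus and 2778, 2698, 2835, 2752, 2874 and 3116 in the low freezing hippocampus. Every amygdala array lay below every hippocampus array, with the highest amygdala reading at 2106 and the lowest hippocampus reading at 2698. The means were 1740 ± 177 units in amygdala arrays and 2935 ± 149 in hippocampus arrays (SD, 12 arrays each). The log2 difference was -0.75 (95% interval -0.83 to -0.68), 1.69-fold lower, with an adjusted p of 3.68e-16 in limma. Differences are on the scale of log2(intensity + 16), which understates the change of dim probe sets, and adjusted p-values are Benjamini-Hochberg values over all 27022 probe sets with a threshold of 0.05.

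The brightest Rasgrf1 probe set, 1435614_s_at, averaged 2440 ± 246 units in amygdala arrays and 3899 ± 280 in hippocampus arrays (SD, 12 arrays each). It ranged from 2170 to 3066 units in the amygdala, against 3428 to 4264 in the hippocampus. Its log2 difference was -0.68 ± 0.05 (SE), 1.60-fold lower, adjusted p = 8.86e-13. The suffix _s_at marks a probe set that can match more than 1 transcript. The dimmest, 1424734_at, averaged 85.4 ± 9.89 units in amygdala arrays and 189 ± 36.8 in hippocampus arrays (SD, 12 arrays each), with a log2 difference of -0.99 ± 0.09 (SE), 1.99-fold lower, adjusted p = 1.15e-10. Its closest arrays were 99.8 units in amygdala low 1 and 103 in hippocampus low 4, so the regions separated here by a narrow gap. All 3 probe sets thus gave the same direction, with intervals that together ran from -1.18 to -0.58.

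**Figure D1:**
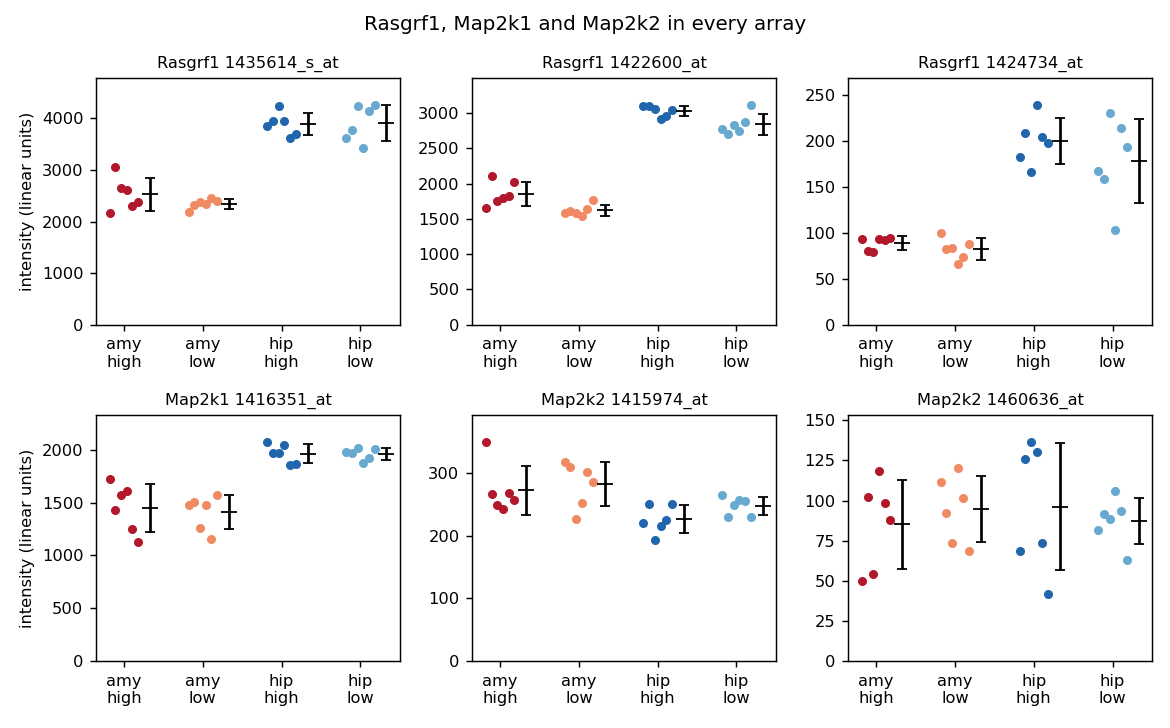
Intensity in linear units (vertical axis, from 0) of the probe sets of Rasgrf1, Map2k1 and Map2k2 in each of the 24 arrays, by group (amy, amygdala; hip, hippocampus; high and low, freezing class). Points are arrays and the bar beside them is mean ± SD (n = 6); all amygdala points lie below all hippocampus points for the 3 Rasgrf1 probe sets and for Map2k1, whose amygdala readings spread from 1123 to 1722 units.

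Map2k1, the gene of MEK1, has 1 probe set, 1416351_at. It read 1722, 1427, 1569, 1608, 1250 and 1123 units in the high freezing amygdala and 1474, 1506, 1262, 1481, 1155 and 1575 in the low freezing amygdala. In the hippocampus it read 2076, 1967, 1963, 2039, 1857 and 1866 units in the high freezing arrays and 1977, 1964, 2014, 1870, 1924 and 2008 in the low freezing arrays. The regions did not overlap, and the amygdala arrays were the more scattered ones, at 1429 ± 190 units against 1961 ± 70.1 in the hippocampus (SD, 12 arrays each). Map2k1 was 1.38-fold lower in the amygdala, with a log2 difference of -0.46 ± 0.06 (SE) and an adjusted p of 6.76e-08.

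Neither probe set of Map2k2, the gene of the partner kinase MEK2, was called lower in the amygdala. Its brighter probe set, 1415974_at, averaged 277 ± 36.0 units in amygdala arrays and 236 ± 20.9 in hippocampus arrays (SD, 12 arrays each), 1.15-fold higher with a log2 difference of 0.21 (95% interval 0.08 to 0.33; adjusted p = 0.00571). The regions overlapped, from 227 to 349 units in the amygdala and from 193 to 265 in the hippocampus. The call was lost with arrays centred on their median, where the difference was 0.13 and the adjusted p 0.0924. The other probe set, 1460636_at, averaged 89.9 ± 23.7 units in amygdala arrays and 91.9 ± 28.8 in hippocampus arrays, with a log2 difference of -0.01 (95% interval -0.31 to 0.28; adjusted p = 0.95). The 95% intervals of Map2k1 and of the brighter Map2k2 probe set lay on opposite sides of 0; a test of the difference between these genes was not made.

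The 9 Braf probe sets did not give 1 answer. The brightest, 1435434_at, averaged 719 ± 59.2 units in amygdala arrays and 884 ± 60.2 in hippocampus arrays (SD, 12 arrays each), 1.22-fold lower (log2 difference -0.29 ± 0.05 SE, adjusted p = 4.90e-06). Its ranges overlapped slightly, from 628 to 813 units in the amygdala and from 799 to 1016 in the hippocampus. Probe set 1456505_at was 1.17-fold lower (241 ± 36.0 units in amygdala against 284 ± 35.1 in hippocampus arrays, adjusted p = 0.0094), and 1425693_at was 1.21-fold lower (61.4 ± 16.7 units in amygdala against 76.2 ± 7.93 in hippocampus arrays, adjusted p = 0.0205; SD, 12 arrays each). These 3 were the Braf probe sets that passed.

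The other 6 Braf probe sets did not pass, with log2 differences from -0.13 to 0.08 and adjusted p from 0.212 to 0.98. Among them 1435480_at, at 236 ± 25.2 units in amygdala arrays and 222 ± 15.7 in hippocampus arrays, had a log2 difference of 0.08, and its interval of -0.04 to 0.19 excluded the difference of -0.29 seen at the brightest probe set. Probe set 1458641_at had a log2 difference of -0.13 (adjusted p = 0.212) and passed with quantile normalization (-0.20, adjusted p = 0.0495) and with arrays centred on their median (-0.21, adjusted p = 0.0477). The remaining 4 averaged between 34.8 and 68.8 units in the amygdala and between 35.3 and 70.8 in the hippocampus, where the medians of whole arrays were 36.7 to 43.4 units. Deviations from the group means over the 24 arrays correlated with r = 0.53 between 1435434_at and 1435480_at, 0.57 between 1425693_at and 1456505_at and -0.33 between 1435434_at and 1425693_at, as a description across arrays.

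**Figure D2:**
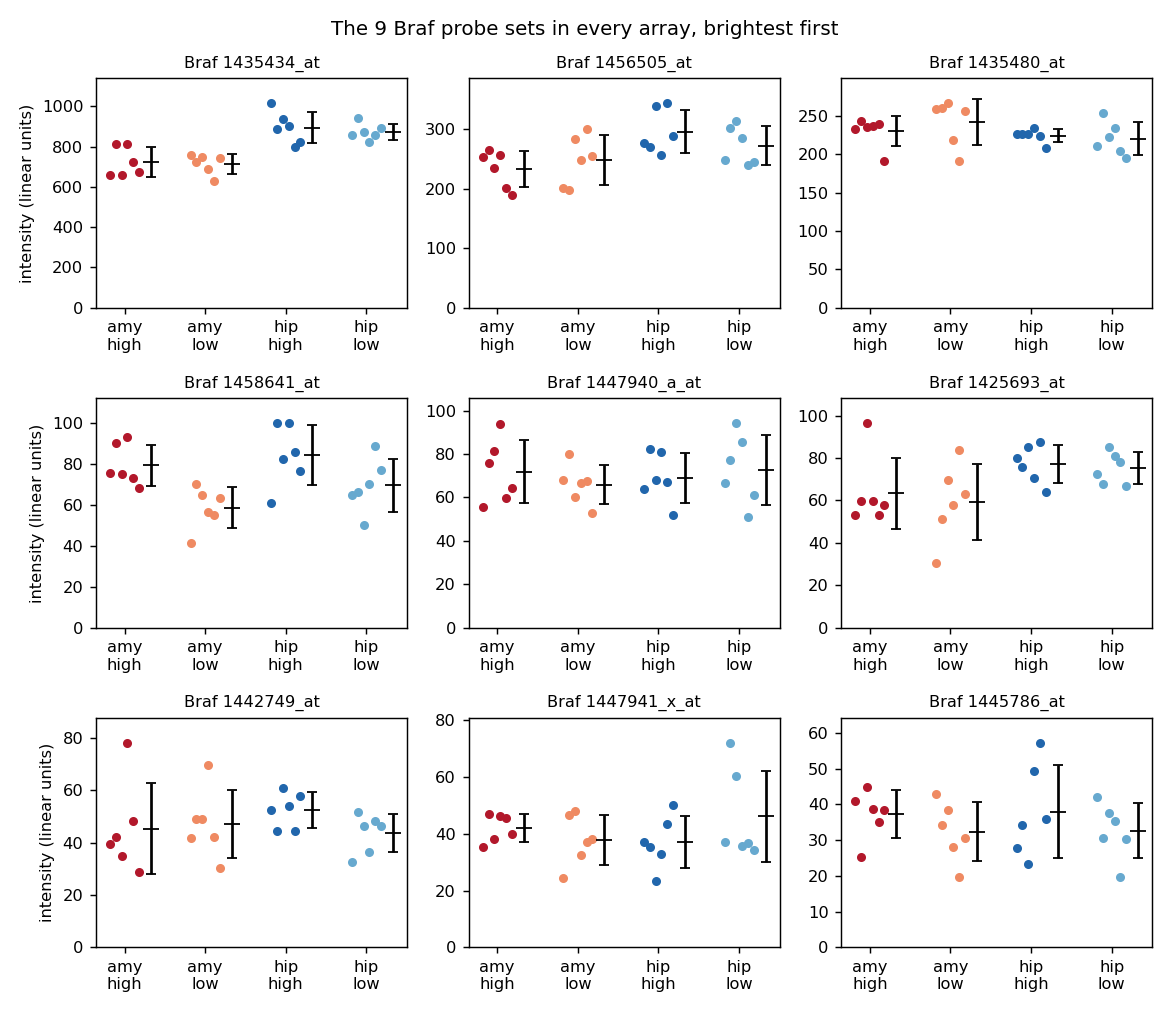
Intensity in linear units (vertical axis, from 0) of the 9 Braf probe sets in each of the 24 arrays, brightest first, by group (amy, amygdala; hip, hippocampus; high and low, freezing class). Points are arrays and the bar beside them is mean ± SD (n = 6); the brightest probe set sits lower in the amygdala, while 1435480_at shows no such step.

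In all, 8 of the 15 probe sets passed between the regions, where 51.2% of all probe sets did, so the share of members that differed was close to the background. By direction, 7 of 15 were lower in the amygdala, against 24.1% of all probe sets, and 1 of 15 was higher, against 27.1%. The median log2 difference was -0.13 over the 15 and 0.02 over all. At 4 of the 15, all amygdala arrays lay below all hippocampus arrays; 13.2% of all probe sets had regions that did not overlap in 1 direction or the other. Probe sets of 1 gene share their target, so these are counts of measurements and not of genes. By size, 9.7% of all probe sets differed at least as much between the regions as Rasgrf1 1422600_at, and 20.6% as much as Map2k1.

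The dissected regions also differ in their cells, as marker genes of the same arrays showed. All 4 measured markers of excitatory neurons were lower in the amygdala, with summed intensity per array from 1993 to 3261 units in the high and 1837 to 2724 in the low freezing amygdala, against 6963 to 8593 and 7180 to 9231 in the high and low freezing hippocampus. Of 5 markers of CA pyramidal cells 4 were lower and 1 higher, and likewise of 5 dentate granule cell markers. Neurod6 is on both the excitatory and the CA pyramidal list. All 5 oligodendrocyte markers were higher, summing to 27341 to 38325 units in the amygdala against 11230 to 14969 in the hippocampus, as were all 5 of striatum and central amygdala, all 3 of GABA neurons, all 5 of choroid plexus and ependyma, 5 of 6 of microglia and 5 of 6 of thalamus, hypothalamus and midbrain. Of 5 astrocyte markers 4 were higher and 1 lower. No marker averaged 0 in any group, but intensity above 0 does not show that a gene was expressed. Tdo2 averaged 13.6 and 6.38 units in the high and low freezing amygdala. Avp averaged 17.1 and 18.6 in the high and low freezing hippocampus. The part of these cell types in the regional differences of Rasgrf1, Braf, Map2k1 and Map2k2 was not tested. Nor was it tested for the other pathway genes given below. Fewer cells of a type and less RNA per cell cannot be told apart in such samples. Within the amygdala, Map2k1 was lowest in high 12 (1123 units) and low 5 (1155), where the summed excitatory markers were 1993 and 1837 units, each the lowest of its freezing group. It was highest in high 7 (1722 units), where they were 3261, the highest. Other lists varied over the same 3 arrays, given here in the order high 12, low 5 and high 7. CA pyramidal sums were 1266.5, 1232 and 1937 units. Those of striatum and central amygdala were 2694, 4577 and 8079. Astrocyte sums went the other way, at 7512, 8048 and 6582, as did those of thalamus, hypothalamus and midbrain, at 3173, 2386 and 789. Sums of dentate granule cells (1139.5, 1106 and 1071), GABA neurons (8025, 8130 and 7666) and oligodendrocytes (29828, 34638 and 27341) were also lowest in high 7. For microglia (3069, 4150 and 3633) and for choroid plexus and ependyma (13773, 17102 and 15500), high 7 lay in between. The 3 arrays were picked by their Map2k1 values. The part of any of these cells in the scatter of Map2k1 was likewise not tested.

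No difference between high and low freezing animals passed at any of the 15 probe sets in limma, in either region. In the amygdala 15 of 27022 probe sets (0.0555%) passed and 0 of 15 members did. In limma 2 of 15 had an unadjusted p under 0.05, against 2901 of all 27022, which is a similar share. In the hippocampus 14 (0.0518%) passed and 0 of 15 members, with 0 at an unadjusted p under 0.05, against 3194 of all 27022. With so few calls in the whole table, a count of 0 among 15 is near the background.

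The nearest to a freezing difference was Rasgrf1 in the amygdala. Its probe set 1422600_at averaged 1857 ± 172 units in high freezing and 1622 ± 79.4 in low freezing arrays (SD, 6 arrays each), a log2 difference of 0.19 (95% interval 0.08 to 0.30; unadjusted p = 0.00151, adjusted p = 0.167 in limma). The groups overlapped, since high 7 (1648 units), high 9 (1756) and low 6 (1771) interleave. Over the alternatives the adjusted p ran from 0.0711, with quantile normalization, to 0.363, with each region fitted alone. In the same comparison no marker of any cell type list passed. All 4 excitatory markers were above 0 (median log2 difference 0.26), as were 4 of 5 CA pyramidal and 4 of 5 dentate granule cell markers. Neurod6 counts in both the excitatory and the CA pyramidal list. All 5 markers of striatum and central amygdala (median -0.26), all 6 of microglia (median -0.23), all 5 of oligodendrocytes (median -0.07) and all 3 of GABA neurons (median -0.04) were below 0, as were 4 of 5 astrocyte markers. Of the markers of choroid plexus and ependyma 1 of 5 was above 0, and of thalamus, hypothalamus and midbrain 2 of 6 were. The part of these cells in the Rasgrf1 value was not tested. The other Rasgrf1 probe sets had differences of 0.10 each (adjusted p = 0.652 and 0.847). At the brightest, 1435614_s_at, the means were 2531 ± 321 units in high freezing and 2348 ± 97.1 in low freezing amygdala arrays (SD, 6 arrays each), and high 8 alone stood at 3066. In the hippocampus 1422600_at averaged 3029 ± 76.9 units in high freezing and 2842 ± 148 in low freezing hippocampus arrays (log2 difference 0.09, 95% interval -0.02 to 0.20, adjusted p = 0.525). There 1435614_s_at differed by -0.01 (adjusted p = 0.986).

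Braf 1458641_at was the other member with a small unadjusted p in the amygdala. It read 75.5, 90.3, 75.0, 93.2, 72.8 and 68.1 units in the high freezing group and 41.3, 70.1, 64.6, 56.3, 55.1 and 63.4 in the low freezing group, overlapping between high 12 and low 2. The log2 difference was 0.36 (95% interval 0.11 to 0.61; unadjusted p = 0.00635, adjusted p = 0.259). In the hippocampus it averaged 84.1 ± 14.8 units in high freezing and 69.4 ± 12.9 in low freezing hippocampus arrays (SD, 6 arrays each; log2 difference 0.23, adjusted p = 0.463). The brightest Braf probe set differed by 0.01 in the amygdala (95% interval -0.12 to 0.15; adjusted p = 0.971) and by 0.03 in the hippocampus (adjusted p = 0.907), so no such difference was seen there.

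For Map2k1 the freezing difference was 0.03 in the amygdala (95% interval -0.13 to 0.20) and 0.00 in the hippocampus (interval -0.17 to 0.17), with group means of 1450 ± 228 and 1409 ± 163 units in the high and low freezing amygdala and 1961 ± 88.5 and 1960 ± 54.6 in the high and low freezing hippocampus. For Map2k2 1415974_at it was -0.05 (interval -0.23 to 0.13) in the amygdala and -0.13 (interval -0.30 to 0.05) in the hippocampus, where the means were 226 ± 21.9 units in high freezing and 247 ± 14.5 in low freezing hippocampus arrays (SD, 6 arrays each). These values missed the threshold, which does not show that the groups are alike.

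**Figure D3:**
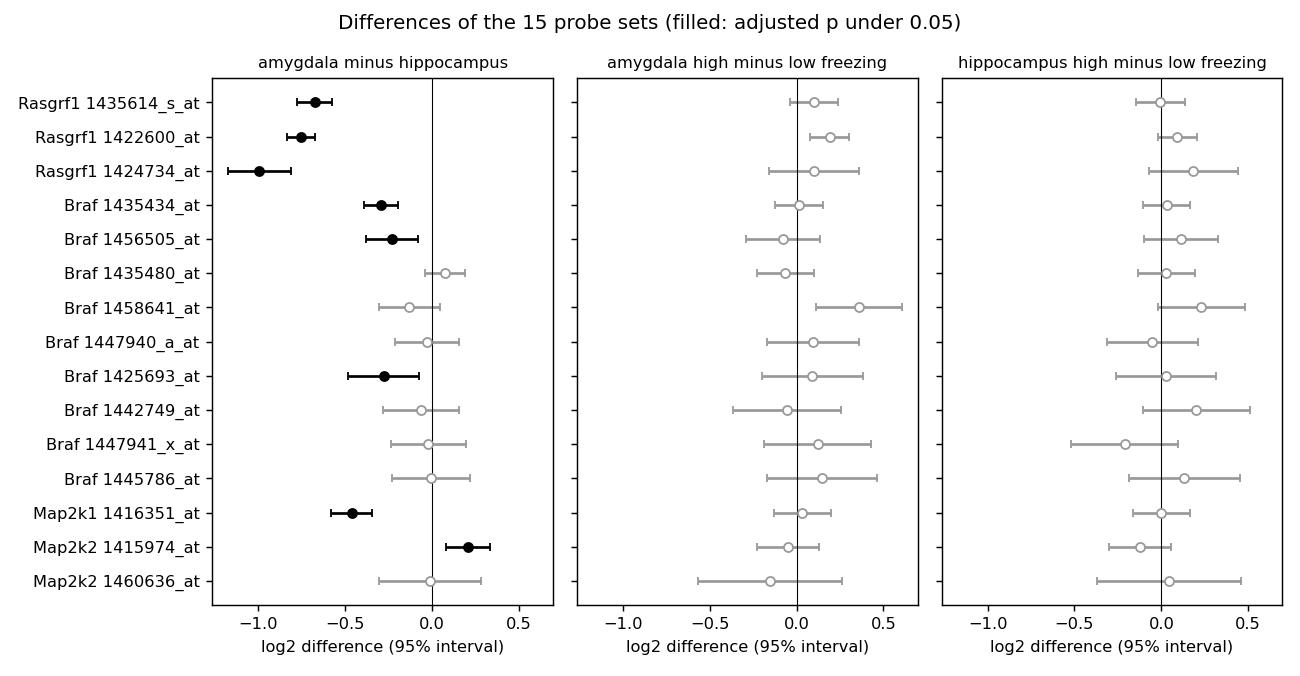
Log2 differences of the 15 probe sets (horizontal axis, on the scale of log2(intensity + 16), with 95% intervals) for amygdala minus hippocampus, and for high minus low freezing in the amygdala and in the hippocampus. Filled points passed at an adjusted p of 0.05: 8 for the regions, with Rasgrf1 farthest from 0, and 0 for either freezing comparison.

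Whether freezing differences varied by region was tested as an interaction. In limma 0 of 15 members passed and none had an unadjusted p under 0.05. Over all 27022 probe sets 0 (0%) passed, with 1637 at an unadjusted p under 0.05. The estimates ran from -0.26, for Braf 1442749_at, to 0.33, for Braf 1447941_x_at. Both of these probe sets are dim, averaging 39.9 to 48.1 units per region, beside whole-array medians of 36.7 to 43.4. For the Rasgrf1 probe sets the estimates were 0.10, -0.09 and 0.11, with adjusted p of at least 0.893 in limma.

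Other genes of the same pathway were counted at each gene's brightest probe set. The list held 58 genes, of which 49 were tested; Dusp9 and Etv4 were too dim, and the others are not analysed here. Between the regions 37 of 49 passed (75.5%), 21 lower and 16 higher in the amygdala (26 lower and 13 higher with arrays centred on their median), where 56.2% of all 12471 genes passed, 24.6% lower and 31.6% higher. The median log2 difference was -0.10 over the list and 0.04 over all genes. For high against low freezing 0 of 49 passed in either region, where 0.0561% of genes did in the amygdala and 0.0321% in the hippocampus.

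Upstream of Ras, of 11 other exchange factors and adaptors tested, 7 were higher and 1 was lower in the amygdala; with arrays centred on their median it was 5 and 4. Rasgrp2, a calcium- and diacylglycerol-responsive exchange factor that acts mainly on Rap, stood at 258 ± 60.8 units in amygdala arrays and 35.7 ± 7.12 in hippocampus arrays (SD, 12 arrays each), 5.23-fold higher (adjusted p = 5.45e-17). Gab1, a docking adaptor, was 3.31-fold higher, at 743 ± 124 units in amygdala against 213 ± 32.5 in hippocampus arrays. Rasgrp1, a diacylglycerol-responsive exchange factor, was the one that was lower, at 1776 ± 122 units in amygdala against 3126 ± 258 in hippocampus arrays, 1.75-fold. Rasgrf2, the close relative of Rasgrf1, missed the threshold at a log2 difference of -0.16 (adjusted p = 0.0795; -0.24 and 0.0155 with arrays centred on their median).

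Among 6 Ras-family proteins 3 were higher and 3 lower. It was 2 and 2 with quantile normalization, where Rras and Rap1b lost their calls, and 2 and 3 with arrays centred on their median, where Rras did. Rap1a was 1.53-fold and Nras 1.21-fold higher in the amygdala, while Rras2 was 2.27-fold lower (102 ± 15.1 units in amygdala against 250 ± 17.6 in hippocampus arrays) and Mras 1.49-fold lower. The proteins that switch Ras off, the GTPase activators, were lower in 4 and higher in 1 of 7 cases: Rasal1 was 1.67-fold and Rasa1 1.38-fold lower, and Rasa3 1.22-fold higher. Of 7 Raf kinases, scaffolds and binding proteins 2 were lower, the scaffold genes Ksr1 (2.02-fold) and Ksr2 (1.22-fold), and 1 was higher, Iqgap1 (1.30-fold). With quantile normalization 3 were lower, as Pebp1 also passed (adjusted p = 3.05e-05), and with arrays centred on their median 4 were, as Pebp1 (adjusted p = 0.0195) and Shoc2 (0.0199) also passed. Araf, a Raf kinase, had a log2 difference of -0.06 (adjusted p = 0.431).

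Downstream, 7 of 11 genes for ERK phosphatases and feedback inhibitors were lower in the amygdala and 1 was higher, with the same counts under quantile normalization and median centring. Dusp4, a phosphatase of the nucleus that acts on ERK, stood at 38.0 ± 6.15 units in amygdala arrays and 144 ± 16.7 in hippocampus arrays (SD, 12 arrays each), 2.96-fold lower. Dusp5, another nuclear ERK phosphatase, was 2.09-fold lower, with a wide spread of 26.7 ± 15.4 units in amygdala against 72.5 ± 30.4 in hippocampus arrays. Dusp1, an immediate early phosphatase, was 1.45-fold higher. Of 7 ERK substrates and target genes 4 were lower and 3 higher: the transcription factor Elk1 was 1.73-fold and Etv5 1.31-fold lower, and the kinase Rps6ka5 1.49-fold and the transcription factor Elk4 1.44-fold higher. Among the other pathway genes given with a fold change, the largest adjusted p was 0.00186, for Iqgap1. Rras and Rap1b passed closer to the threshold, with adjusted p of 0.0297 and 0.0326 in limma.

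**Figure D4:**
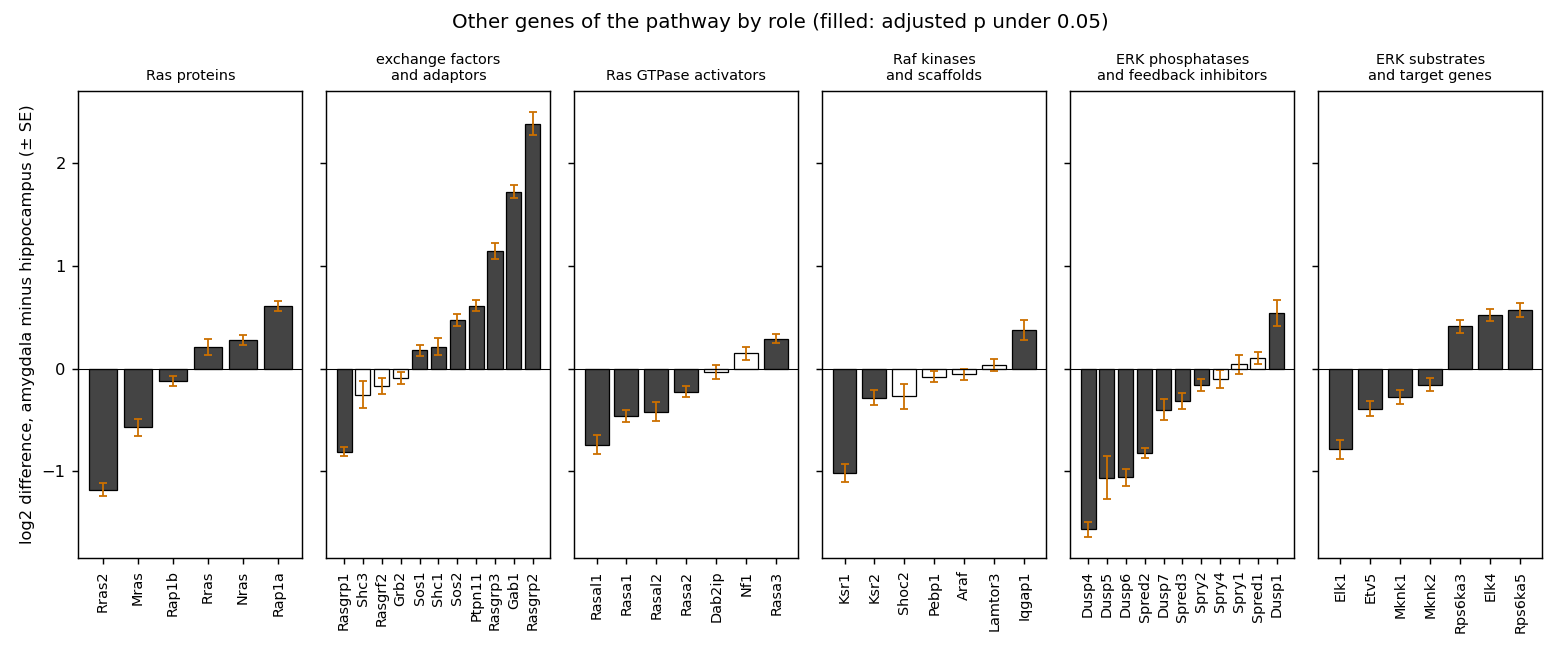
Log2 differences, amygdala minus hippocampus (vertical axis, ± SE), of 49 other genes of the pathway in 6 panels by role. Filled bars passed at an adjusted p of 0.05; 7 of 11 exchange factors and adaptors stand above 0 as filled bars, and 7 of 11 phosphatases and feedback inhibitors below it.

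Genes whose arrays deviated most like those of each member were found by Pearson's r of deviations from the 4 group means, over 24 arrays and 12470 other genes, as a description. For Map2k1 these were Gda (r = 0.94) and Hpcal4 (r = 0.93). The likeness was larger among the amygdala arrays, with r of 0.97 and 0.96 there against 0.39 and 0.29 in the hippocampus. Gda encodes guanine deaminase and Hpcal4 a neuronal calcium sensor. In amygdala high 12, where Map2k1 was lowest, Gda stood at 643 units and Hpcal4 at 1471; in amygdala high 7, where Map2k1 was highest, they stood at 1482 and 3130. For Rasgrf1 the closest were Kif5c (r = 0.75) and Cttn (r = 0.72), for Braf Arl1 (r = 0.72) and Jph1 (r = 0.71), and for Map2k2 Tspoap1 (r = 0.74) and Praf2 (r = 0.73). These are the top values among 12470 genes, and the r that such a search reaches by chance was not computed. All genes of 1 array are read from the same sample, so such a likeness does not show shared control, which was not tested.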

How the data were processed

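The deposited table holds linear intensity values, 1 per probe set and array, for 45101 probe sets; the sources used here do not give the software. Groups came from the labels. The 64 control probe sets and the dimmest 40% by mean log2 over all arrays were left out, which kept 27022. Tests used limma 3.58.1 in R 4.3.3 on log2(intensity + 16) from the deposited intensity, with 1 mean per group over 24 arrays, 20 residual degrees of freedom, an intensity trend in the variance prior, two-sided tests and Benjamini-Hochberg adjustment over all probe sets kept. As a check of the code, the model was run on simulated arrays. These had independent noise and changes in the high freezing hippocampus only, with no regional difference and no effect shared within an array. Arrays have no read depth; 6 per group limits the precision.

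Gene symbols came from the platform annotation, with 1 symbol for 34945 probe sets; promoters came from RefSeq, where all 4 genes matched. Of the other pathway genes, up to 2 of the largest differences past the threshold per role and direction were named; Rasgrf2, Araf, Rras, Rap1b, Pebp1 and Shoc2 fall outside this rule and were named after their values were seen. Members, lists and tests were chosen with earlier results of these data known. Alternatives changed the offset, scaling, filter, variance prior, arrays fitted, the replicate block, probe sets per gene and each array in turn.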

Additional observations from a re-analysis of the deposited data

Results flagged for a closer look

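Within groups of 6 arrays, 3 of the 60 combinations of a probe set and a group held 1 array standing far from the rest; about 1 in 20 groups gives this by chance. Map2k2 1415974_at read 349.3 units in amygdala high 7, with the next highest array of that group at 267.3. Without that array the regional difference of this probe set was 0.17 on the log2 scale (adjusted p = 0.0116 in limma). Braf 1425693_at read 96.66 units in amygdala high 9, with the next highest at 59.64. Braf 1435480_at read 190.8 units in amygdala high 12, with the next lowest at 233.5. All 3 arrays are of the high freezing amygdala.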

How the results depend on the processing

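Each of 35 alternatives was run, 24 of them leaving out 1 array. The count of probe sets of these genes that differed between the regions was 8 as reported. With 1 probe set per gene, which tests only 4, it was 4. With the dimmest 60% left out, which tests only 11, it was 7, and it was 8 or 9 otherwise. In the other comparisons it was 0 under every alternative run. The regional differences of Rasgrf1 (3 probe sets), Map2k1 and Braf 1435434_at, 1456505_at and 1425693_at kept their direction and passed under every alternative that tested them. Calls that changed were those of Map2k2 1415974_at and Braf 1458641_at, given above with their values; the cause was not tested. With arrays centred on their median 5580 probe sets were higher and 8605 lower in the amygdala, against 7310 and 6522 as reported. Over all probe sets, the amygdala freezing comparison called 15, and 0 with each region fitted alone, 2 without an intensity trend or without amygdala low 1, and 56 without amygdala low 6; the hippocampal one called 14, and 0 without hippocampus low 5 or high 11 and 33 without hippocampus low 2. Hippocampus and amygdala arrays share the numbers 1 to 12, and the labels do not say whether a number stands for 1 animal. Same-numbered arrays deviated together with correlations of -0.08 to 0.09. Of the 12 amygdala arrays 5 correlated best with their own number, and the count expected by chance was not computed. The main regional test treated all 24 arrays as separate. With the replicate block 8 members were called between the regions, and 35 rather than 37 pathway genes passed. Dim probe sets, such as the 3 of Braf that averaged between 34.8 and 48.1 units per region, limit what can be seen there.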
